A study of Caenorhabditis elegans with 2 samples.

Results

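The cytoplasmic ribosomal protein genes of the nematode Caenorhabditis elegans were examined for peaks of a tagged forkhead transcription factor, FKH-10, in late embryos. The genes were taken by name from the protein-coding genes of Ensembl release 115 on the WBcel235 assembly, as rpl-, rps- or rpa- followed by a digit, or as rla-0, rla-1 or rla-2. The name rule found 84 of 19973 nuclear protein-coding genes. Of these, rpa-1, rpa-2 and rpa-4 have RefSeq products of replication protein A, a complex that binds single-stranded DNA, and not of the ribosome, so the label was not met by 3 genes and the 81 others were used. Of those 3, rpa-2 had 2 summits in replicate 2, the higher of height 12.5, and none in the other lists, and rpa-1 and rpa-4 had none in any list. The 81 comprise 50 genes named for the large subunit (rpl and rla) and 31 named for the small subunit (rps). A pair of rpl names, rpl-24.2 and rpl-42, carry RefSeq products of a putative ribosome biogenesis protein and of a NAM-associated domain-containing protein. They were kept by name and are pointed out where they matter. The rule itself uses names and no measured value, but it was proposed, and the 3 genes set aside, with results of these data known.

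The ribosome makes protein from messenger RNA. Its small subunit reads the message, its large subunit joins the amino acids, and each is built of ribosomal RNA and many different proteins that are needed in near-equal numbers. Genes for these proteins are short and are among the most strongly transcribed in growing cells, and in C. elegans many of their messages receive a spliced leader at the 5′ end. Forkhead factors recognise short A- and T-rich sites, of which GTAAACA is the best known core.

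The study mapped the genomic DNA recovered with tagged FKH-10 by chromatin immunoprecipitation and sequencing (ChIP-seq), in 1 group of 2 biological replicates. Whole late embryos of mixed sex and of unknown age came from strain OP337, whose genotype is labelled as unc119(ed3) with the insertion wgIs377, a fkh-10 transgene carrying TY1, EGFP and FLAG tags together with unc119. Both replicates share this genotype, so no wild-type or untagged strain was compared here. The labels do not say which cells of the embryo make the tagged protein, and fragments were size-selected to 150 to 350 bp. The authors deposited peak lists against a control on the ce11 build: replicate 1 held 27873 nuclear peaks, replicate 2 held 29978, both replicates together (the pooled list) 7420, and the list thresholded by reproducibility between replicates (the optimal list) 358. All 358 optimal nuclear peaks are also in the pooled list, so these lists are not independent of each other or of the replicate lists. The window of fkh-10 itself held no summit in any of the 4 lists. Read depth is unknown.

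A gene was counted where the summit of a peak lay from 1000 bp upstream to 500 bp downstream of its 5′ end. Of the 81 ribosomal protein genes, 7 had such a summit in the optimal list, against 0.945% of the 19892 other protein-coding genes. The 7 are 8.64% of the genes (95% Wilson interval 4.25 to 16.8%), a share 9.14-fold that of the other genes. In the pooled list 48 of 81 had a summit, or 59.3% (48.4 to 69.3%), against 13.1% of the other genes, a 4.53-fold larger share. In the list of replicate 1 the count was 64, or 79.0% (68.9 to 86.5%), against 39.5% of the others. In that of replicate 2 it was 68, or 84.0% (74.5 to 90.4%), against 39.8%. The share was thus above that of the other genes in each of the 4 lists. The ratio to the other genes was largest in the shortest list and was 2.0 and 2.11 in the long replicate lists. The largest possible ratio falls as the share of the other genes rises. Ratios from lists of unlike length therefore do not rank the lists by strength of preference. The intervals cover counting error over genes only and treat genes as independent, although neighbouring genes can share a peak.

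The same held when each list was read from its strongest peak down. Among the 100 strongest nuclear peaks of the pooled list, 3 of the 81 genes had a summit, against 0.251% of the other genes. Among the 1000 strongest, 17 did, or 21.0%, against 2.56%. The 358 strongest nuclear peaks of replicate 1 alone reached 5 of the genes (6.17%), against 0.895% of the others, and those of replicate 2 alone also reached 5, against 0.824%. At the length of the pooled list, 36 genes (44.4%) were reached in replicate 1, against 12.9%, and 40 (49.4%) in replicate 2, against 12.4%. Each replicate on its own therefore gave a share of ribosomal protein genes above that of the other genes at matched list lengths.

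**Figure D1:**
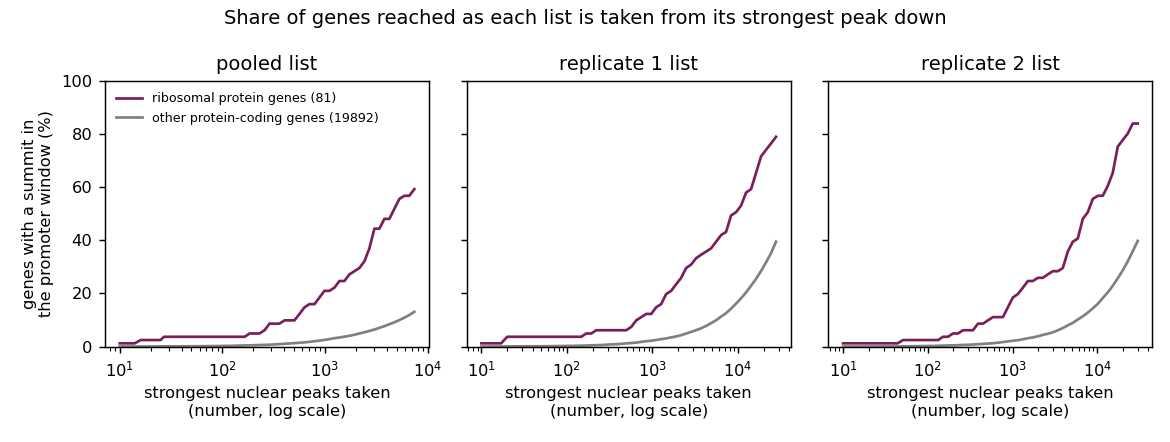
Share of genes with a summit in the promoter window (y axis, percent) as the nuclear peaks of a list are taken from the strongest down (x axis, number of peaks, log scale), for the 81 ribosomal protein genes and the 19892 other protein-coding genes in the pooled, replicate 1 and replicate 2 lists. The ribosomal protein line ends at 59.3%, 79.0% and 84.0%, and that of the other genes at 13.1%, 39.5% and 39.8%.

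The 7 genes of the optimal list were rpl-3, rpl-20, rpl-15, rpl-12, rpl-42, rpl-14 and rps-28. Heights below are the authors' own signal values, whose scale the sources used here do not give, so they order peaks within 1 list. The strongest was rpl-3, which encodes uL3, a protein of the large subunit that reaches towards the peptidyl transferase centre. Its peak had a height of 129 in the pooled list, where it was rank 3 of all nuclear peaks, with a height of 72.0 in replicate 1 (rank 1) and of 56.5 in replicate 2 (rank 8). Its pooled summit lay at -291 bp, that is upstream of the 5′ end. No peak in the nuclear genome was higher in replicate 1 than the one before rpl-3.

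After rpl-3 came rpl-20 (eL20) and rpl-15 (eL15), both proteins of the large subunit. The peak at rpl-20 had a pooled height of 83.5 (rank 15), with 49.3 in replicate 1 (rank 18) and 35.6 in replicate 2 (rank 48), and its summit was at -284 bp. It was nearer to another gene, 178 bp from the 5′ end of Y17G9B.5, which is transcribed away from rpl-20. The peak at rpl-15 had a pooled height of 75 (rank 27), with 47.9 in replicate 1 (rank 20) and 26.5 in replicate 2 (rank 134), and its summit was at -347 bp. In replicate 2 the height after that of rpl-15 was 23.6, at rps-28, with no clear gap. In the pooled list and replicate 1 the 3 genes stood apart from the other 78, the next heights being 46.1 and 28.4.

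That next gene was rpl-12, which encodes uL11, a protein at the base of the stalk to which translation factors bind. Its pooled height was 46.1 (rank 178), with 28.4 in replicate 1 (rank 148) and 15.4 in replicate 2 (rank 781). Unlike the other 6, its summit lay on the 5′ end itself, at 4 bp downstream. The peak counted for rpl-42 had a pooled height of 41.9 (rank 232), 25.6 in replicate 1 (rank 214) and 14.5 in replicate 2 (rank 1005). It sat at -966 bp, at the edge of the window, and rpl-42 is 1 of the genes whose RefSeq product is not a ribosomal protein. Without rpl-24.2 and rpl-42 the optimal count is 6 of 79.

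The last 2 genes had the same pooled height to 3 digits but a different balance between the replicates. For rpl-14 (eL14, large subunit) the pooled height was 39.5 (rank 279), with 20.0 in replicate 1 (rank 588) and 17.5 in replicate 2 (rank 505), at -299 bp. For rps-28 (eS28, a small-subunit protein close to the messenger RNA) it was 39.5 (rank 277), with 17.3 in replicate 1 (rank 1091) and 23.6 in replicate 2 (rank 197), at -413 bp. Of all 7, only rps-28 and rpl-14 ranked higher in replicate 2 than in replicate 1. In each of the 7 the closest summits of the replicates lay within 47 bp of each other, from 1 bp at rps-28 to 47 bp at rpl-20.

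The letters under the summits of 5 of these genes are shown (rpl-14 is not shown, and the 201 bases at rpl-12 touch an annotated exon), with rpl-18, which had no summit in any list, as a contrast centred at the median position of the pooled summits, -282 bp. The sequences are RefSeq's for WBcel235, written 5′ to 3′ on the strand of the gene: rpl-3 at chrIII:3867463-3867663 (plus strand), rpl-20 at chrIV:4749962-4750162 (minus strand), rpl-15 at chrIV:654823-655023 (minus strand), rps-28 at chrIV:1659178-1659378 (plus strand), rpl-42 at chrII:11091647-11091847 (plus strand) and rpl-18 at chrIV:13777483-13777683 (plus strand). Capitals mark either the word GGCCTAAA, described with the promoter words further on, or a forkhead core on either strand: the letters GTAAACA, the letters GTAAATA, the letters ATAAACA or the letters ATAAATA.
rpl-3: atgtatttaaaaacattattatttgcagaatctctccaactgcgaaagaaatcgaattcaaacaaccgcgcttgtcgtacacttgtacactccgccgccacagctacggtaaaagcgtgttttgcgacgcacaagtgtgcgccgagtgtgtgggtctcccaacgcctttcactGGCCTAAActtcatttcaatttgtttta
rpl-20: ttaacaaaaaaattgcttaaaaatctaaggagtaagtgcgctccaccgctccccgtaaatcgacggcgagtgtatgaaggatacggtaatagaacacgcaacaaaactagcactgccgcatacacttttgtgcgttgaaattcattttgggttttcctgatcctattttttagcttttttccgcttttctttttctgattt
rpl-15: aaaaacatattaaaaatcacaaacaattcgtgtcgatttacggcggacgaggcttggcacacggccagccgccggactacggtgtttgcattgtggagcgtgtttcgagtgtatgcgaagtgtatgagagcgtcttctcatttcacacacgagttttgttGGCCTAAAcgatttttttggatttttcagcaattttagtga
rps-28: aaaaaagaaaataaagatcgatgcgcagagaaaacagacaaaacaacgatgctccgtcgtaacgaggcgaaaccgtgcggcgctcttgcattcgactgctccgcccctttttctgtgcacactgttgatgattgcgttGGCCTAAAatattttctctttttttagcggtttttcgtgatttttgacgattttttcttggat
rpl-42: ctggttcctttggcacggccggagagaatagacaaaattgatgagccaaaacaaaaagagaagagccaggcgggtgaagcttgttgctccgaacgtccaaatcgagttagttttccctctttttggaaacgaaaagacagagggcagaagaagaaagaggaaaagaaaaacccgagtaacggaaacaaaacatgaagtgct
rpl-18: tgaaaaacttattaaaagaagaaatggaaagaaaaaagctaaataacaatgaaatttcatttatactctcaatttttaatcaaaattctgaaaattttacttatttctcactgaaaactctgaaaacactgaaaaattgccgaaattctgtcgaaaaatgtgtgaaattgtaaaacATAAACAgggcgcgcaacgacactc
The 5 sequences shown under summits are 38.8 to 44.8% G and C and hold no forkhead core. GGCCTAAA lies downstream of the summit of rpl-3, rpl-15 and rps-28. The sequence before rpl-18 is 27.9% G and C and holds 1 forkhead core. It is a single gene, and the 201 bases at the pooled summits of rpl-34 and rpl-38 are also 27.9% G and C.

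A further 41 genes had a summit in the pooled list but not in the optimal list, which ends at a height of 36.6. Just below it was rpl-35 (uL29), with a pooled height of 36.5 (rank 366), 15.9 in replicate 1 and 18.9 in replicate 2. The next were rpl-43 and rps-12, each with a pooled height of 32.5, then rpl-24.2 with 31.3, rpl-22 with 30.8, rpl-11.2 with 29.6, rps-26 with 28.3, rpl-5 with 27.8, rps-11 with 27.3 and rps-1 with 27.1. Of these 10, 7 ranked higher in replicate 2 than in replicate 1 (rpl-35, rps-12, rpl-24.2, rpl-22, rpl-11.2, rps-26 and rps-11), and rpl-43, rpl-5 and rps-1 ranked higher in replicate 1. Among the 7, rpl-22 had heights of 12.5 and 19.0 in replicates 1 and 2, rps-26 of 13.7 and 14.3, and rpl-24.2 of 17.0 and 17.2. At rpl-11.2 (9.03 and 15.3) and rps-11 (10.2 and 13.8) the best summits of the replicates were at different places. That of rpl-11.2 was at 429 bp downstream in replicate 1 and at -320 bp in replicate 2, and that of rps-11 at -774 and -208 bp. Of the other 3, rpl-43 had 18.9 and 12.6 and rpl-5 had 19.2 and 7.35. The most uneven of the 10 by rank was rps-12 (eS12), whose best peak had a height of 8.76 in replicate 1 (rank 18092) and of 21.6 in replicate 2 (rank 249), the fifth highest of the ribosomal protein genes there. At rps-1 the order was the other way, with 19.9 in replicate 1 and 10.3 in replicate 2. The lowest pooled heights among the 48 were 16.6 at rps-17 and 16.3 at rps-24, against a lowest height of 16.2 in the whole pooled list.

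**Figure D2:**
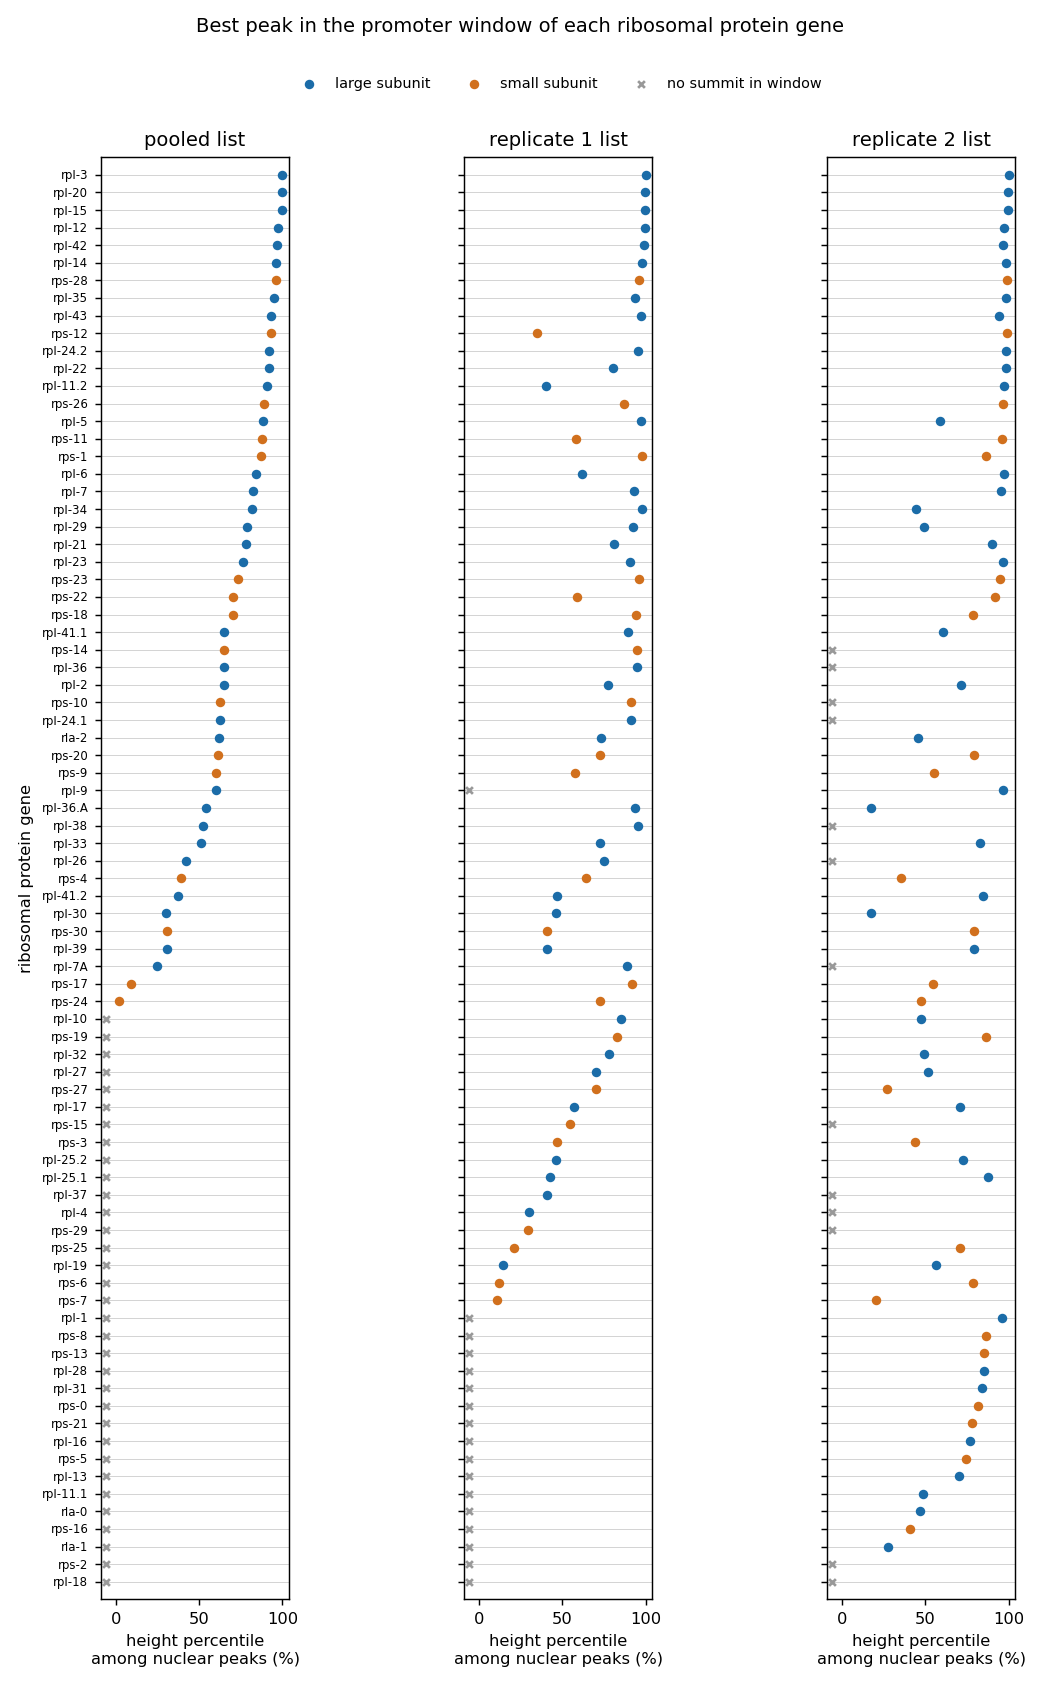
Percentile of the best peak's height among the nuclear peaks of each list (x axis, percent) for each of the 81 ribosomal protein genes (y axis, ordered by pooled height), coloured by subunit, with crosses for genes that had no summit in the window. The 48 genes with a pooled summit are at the top from rpl-3 down, and rpl-18 and rps-2 at the bottom have a cross in all 3 panels.

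The genes without a pooled summit fell into further classes. In 13 of them both replicates had a summit (rpl-10, rpl-17, rpl-19, rpl-25.1, rpl-25.2, rpl-27, rpl-32, rps-3, rps-6, rps-7, rps-19, rps-25 and rps-27). In 4 only replicate 1 did (rpl-4, rpl-37, rps-15 and rps-29), and in 14 only replicate 2 (rla-0, rla-1, rpl-1, rpl-11.1, rpl-13, rpl-16, rpl-28, rpl-31, rps-0, rps-5, rps-8, rps-13, rps-16 and rps-21). The highest of these 31 in replicate 2 was rpl-1 with 13.8, at 276 bp downstream of the 5′ end and so in the gene, and the highest in replicate 1 was rpl-10 with 13.3. A pair of genes, rpl-18 (large subunit) and rps-2 (small subunit), had no summit in any list. Of the other protein-coding genes 40.5% had none in either replicate, against 2.47% of the ribosomal protein genes.

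A summit in both replicates was found at 53 of 81 (65.4%), against 19.7% of the others. Of the 64 genes with a summit in replicate 1, 82.8% had one in replicate 2, close to the 84.0% of all 81 that did. Of the 68 in replicate 2, 77.9% had one in replicate 1, close to 79.0% of all 81. Among ribosomal protein genes a summit in 1 replicate was thus no more frequent where the other replicate had one. For the other genes the shares were 50.0%, against 39.8% of all of them in replicate 2, and 49.6%, against 39.5% in replicate 1. The closest summits of the replicates were within 100 bp of each other at 36 of all 81 genes (44.4%), against 7.91% of all the others. Among genes with a summit in both replicates these were 36 of 53, against 1574 of 3927. The median separation was 53.0 bp where both had a summit, against 151 bp. It is the smallest over all pairs of summits in a window, so it can shrink where a window holds several. The part of this was not tested. The heights of the best summits in the replicates had a Spearman rho of 0.374 over the 53 genes and of 0.252 over 3927 other genes. This is a description across genes, which share the same libraries and control. Of the 48 genes with a pooled summit, 40 had one in both replicates, 7 (rpl-7A, rpl-24.1, rpl-26, rpl-36, rpl-38, rps-10 and rps-14) in replicate 1 alone and rpl-9 in replicate 2 alone. Of the 2602 other genes with a pooled summit, 1907 had one in both replicates. A further 426 had one in replicate 1 alone, 239 in replicate 2 alone and 30 in neither.

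**Figure D3:**
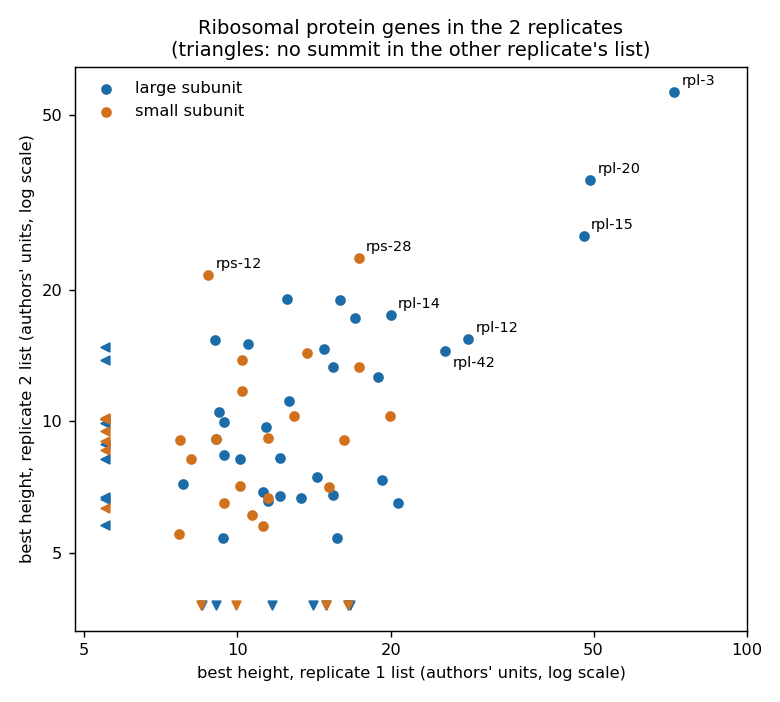
Best height in the promoter window in replicate 1 (x axis) and replicate 2 (y axis), both in the authors' units on log scales, for ribosomal protein genes with a summit in at least 1 replicate. Points are the 53 genes with a summit in both, and triangles placed at the margins, not at a measured value, are the 11 genes with a summit in replicate 1 alone and the 15 with one in replicate 2 alone; rpl-3, rpl-20 and rpl-15 are at the upper right.

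The best peak in the window also ranked higher at ribosomal protein genes than at other genes with a summit, except by the median rank in the optimal list. A best rank can rise with the number of summits alone. More than 1 summit was found at 38.3% of ribosomal protein genes in replicate 2, against 7.35% of the others. The shares were 17.3% against 6.5% in replicate 1 and 3.7% against 0.714% in the pooled list. The part of this in the ranks was not tested. The median rank of the best summit was 2090 in the pooled list, which is 28.2% of the way down it, against 41.6% for the other genes. In replicate 1 it was 20.7% of the way down against 43.1%, and in replicate 2 20.9% against 43.0%. In the top part of the list, its highest 25%, were 23 of the 48 genes with a pooled summit (47.9% against 33.2%), 34 of 64 in replicate 1 (53.1% against 30.5%) and 40 of 68 in replicate 2 (58.8% against 31.4%). In the optimal list the median rank was 49.7% of the way down, close to 50.8% for the other genes, while 3 of the 7 were in its highest 25% (42.9% against 21.8%).

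Summits sat at a narrow distance before the ribosomal protein genes in the pooled list and replicate 1, but were spread more widely in replicate 2. In the pooled list the median position was -282 bp, with the middle 50% of genes between -348 and -223 bp, a width of 125 bp. For the other genes the median was -247 bp and that width was 498 bp. Of the 48 genes, 45 had the summit upstream of the 5′ end (93.8%, against 77.9% of the other genes). The 3 exceptions were rps-4 at 494 bp, rps-22 at 193 bp and rpl-12 at 4 bp downstream. A band from 450 to 150 bp upstream, which was chosen with these positions in view, held 36 of the 48 (75%), against 31.6% of the other genes. In replicate 1 it held 40 of 64 (62.5%, against 24.7%) and in replicate 2 37 of 68 (54.4%, against 23.7%). The middle 50% of genes spanned 173 bp in replicate 1, against 634 bp, with 89.1% of summits upstream, against 73.2%. In replicate 2 it ran from -371 to 108 bp, a width of 479 bp against 645 bp. There the upstream share was 70.6%, close to the 68.8% of the other genes.

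Counted over all summits, the density was highest in the bin from 300 to 200 bp upstream. There it was 24.7 summits per 100 ribosomal protein genes in the pooled list, 32.1 in replicate 1 and 25.9 in replicate 2, against 1.5, 3.97 and 3.76 per 100 other genes. The replicates also differed downstream of the 5′ end. From 100 to 500 bp downstream of the 5′ end, replicate 2 had 7.41 to 11.1 summits per 100 ribosomal protein genes in each bin of 100 bp, against 2.96 to 3.05 for the other genes. Replicate 1 had 2.47 to 3.7 there, against 2.49 to 2.56, and the pooled list 1.23 in each bin. The excess in replicate 2 was not confined to that stretch. It had 8.64 summits per 100 ribosomal protein genes from 1000 to 900 bp upstream, against 2.78. From 800 to 900 bp downstream it also had 8.64, against 2.9. Other bins were below the other genes, such as 1.23 in the last 100 bp upstream, against 3.93. More than 1 summit in the window was found at 31 ribosomal protein genes in replicate 2 (38.3%, against 7.35% of the others), at 14 in replicate 1 (17.3%, against 6.5%) and at 3 in the pooled list (3.7%, against 0.714%). The genes are short, with a median length of 754 bp against 2034 bp for the other genes, so the window covers much of a typical ribosomal protein gene.

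**Figure D4:**
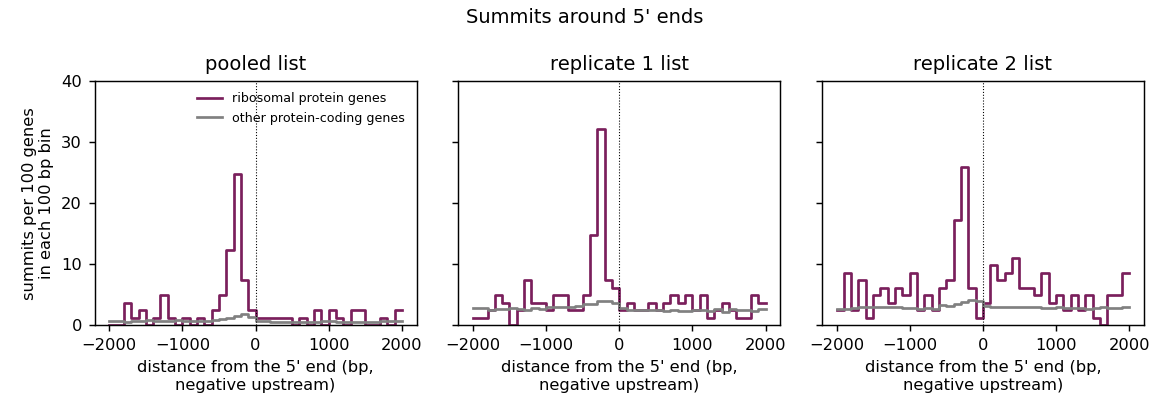
Summits per 100 genes in bins of 100 bp (y axis) by distance from the 5′ end (x axis, bp, negative upstream) for ribosomal protein genes and other protein-coding genes in the pooled, replicate 1 and replicate 2 lists. The ribosomal protein line peaks between -300 and -200 bp at 24.7, 32.1 and 25.9. In replicate 2 it also stays above the other genes from 100 to 500 bp downstream, and is above them in bins further out on both sides.

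The subunits were compared next. In the pooled list 32 of 50 large-subunit genes had a summit (64.0%, interval 50.1 to 75.9%) and 16 of 31 small-subunit genes (51.6%, 34.8 to 68.0%). The small-subunit share was lower by 12.4 percentage points, and the 95% Newcombe interval of the difference, from -32.9 to 9.1, holds 0. In replicate 1 the shares were 80.0% and 77.4%, a difference of -2.58 points (-21.9 to 14.6). In replicate 2 they were 84.0% and 83.9%, a difference of -0.129 points (-18.3 to 15.3). These intervals describe counts of genes, which are not replicates of a condition. They are wide, and show neither a difference between the subunits nor that the subunits are alike. They also treat the 2 shares as independent. Yet 3 pooled summits were each counted for both a large- and a small-subunit gene. In the optimal list 6 of 50 large-subunit genes (12%) stood against 1 of 31 small-subunit genes (3.23%), with Wilson intervals of 5.62 to 23.8% and 0.572 to 16.2% that overlap. The 6 include rpl-42, and the 32 of the pooled list include rpl-42 and rpl-24.2. Without this pair of genes the difference was -10.9 points in the pooled list, -1.75 in replicate 1 and 0.538 in replicate 2. Median heights were 23.5 at large- and 21.3 at small-subunit genes in the pooled list, 13.7 and 11.0 in replicate 1, and 9.8 and 9.1 in replicate 2. The direction of the difference was not the same in all alternative ways of counting. The small-subunit share was the lower in 10 of 11 alternatives for the pooled list and in 9 of 10 for replicate 1. In replicate 2 it was the higher in 8 of 10. With replicate 2 alone, cut to the length of the pooled list, the small subunit was higher by 3.61 points, and with replicate 1 alone the difference was -25.0 points.

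Some members were also compared by their role, chosen with their values in view. The stalk proteins, which hold translation factors on the large subunit, are encoded by rla-0, rla-1, rla-2 and rpl-12. Of these, rpl-12 was in the optimal list, rla-2 had a pooled height of 20.6, and rla-0 and rla-1 had a summit in replicate 2 alone, with heights of 6.64 and 5.78. The proteins uL18 (rpl-5) and uL5 (rpl-11.1 and rpl-11.2) bind the 5S ribosomal RNA. Here rpl-5 had a pooled height of 27.8 and rpl-11.2 of 29.6, while rpl-11.1 had a summit in replicate 2 alone, with a height of 6.72 at 190 bp downstream. Paired copies thus did not have like values in every case. The copies rpl-25.1 and rpl-25.2 both had summits in the replicates but not in the pooled list, and rpl-41.1 and rpl-41.2 had pooled heights of 21.0 and 18.2. The sources used here do not state how reads from near-identical copies were assigned. The names rpl-24.1 (20.6) and rpl-24.2 (31.3) both had a pooled summit, and only the first has a ribosomal protein as its RefSeq product.

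Ribosomal protein genes lie on all 6 chromosomes, and peaks were found on each. In the pooled list a summit was found at 11 of 25 genes on chromosome I (44.0%), 8 of 10 on II, 11 of 18 on III, 13 of 18 on IV (72.2%), 4 of 8 on V and 1 of 2 on X. Of the 7 genes in the optimal list, 4 are on IV (rpl-20, rpl-15, rpl-12 and rps-28). The numbers per chromosome are small and were not compared further, nor set beside the other genes of the same chromosome.

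Some ribosomal protein genes share their upstream region with another gene. The 48 genes with a pooled summit rest on 45 distinct summits, since 3 summits lie between divergent pairs: rpl-24.1 and rps-10, rpl-36 and rps-14, and rpl-39 and rps-30. At 17 of the 48 genes the pooled summit was nearer to the 5′ end of another protein-coding gene. When each summit was given only to its nearest 5′ end, 32 of the 81 genes kept a pooled summit (39.5%), against 10.8% of the other genes. Genes with a divergent neighbour within 1000 bp had a pooled summit in 32 of 48 cases (66.7%). Those with a neighbour on the same strand had one in 12 of 25 (48.0%) and those with no neighbour that close in 4 of 8 (50.0%). These classes, and the count of 17 above, were not counted among the other genes, so they describe ribosomal protein genes only. No pooled summit of a ribosomal protein gene was within 100 bp of a tRNA, snoRNA or snRNA gene, the closest being 111 bp away. Summits that close to such an RNA gene were also few at the other genes. Their pooled share was 13.1% with these summits and 12.8% without them. Of the 81 ribosomal protein genes, 13 hold such an RNA gene, and 10 of the 13 had a pooled summit, beside 48 of all 81. Other protein-coding genes that hold such an RNA gene were not counted.

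Related genes of the translation machinery were counted in the same way. The genes for mitochondrial ribosomal proteins, which serve the separate ribosome of that organelle, had a pooled summit at 24 of 71 (33.8%) and an optimal one at 1 (1.41%), mrpl-12, with a height of 53.1. The next highest pooled height in that group was 33.6 at mrps-7. Translation factor genes had 14 of 40 in the pooled list (35.0%) and 2 in the optimal list (5.0%), iff-2, the gene of an initiation factor 5A, with 48.6 and eif-3.C, which encodes a subunit of initiation factor 3, with 47.6. Genes for ribosome assembly (36 found by name, with 8 further names not found) had 9 in the pooled list (25%) and 0 in the optimal list, with ruvb-2 (26.2) and nol-10 (22.6) highest. The 4 genes for subunits of RNA polymerase I, which transcribes ribosomal RNA, had no pooled summit. The genes ubl-1 and ubq-2 encode ribosomal proteins fused to ubiquitin or a ubiquitin-like protein and lie outside the naming rule, while rps-30, whose RefSeq product is also ubiquitin-like, is among the 81. Of these, ubl-1 had a pooled height of 26.8 at -773 bp, rps-30 had 17.7 at -229 bp and ubq-2 had no pooled summit. In replicates 1 and 2 the shares were 53.5% and 59.2% for the mitochondrial ribosomal protein genes, 57.5% and 72.5% for the translation factor genes and 52.8% and 55.6% for the assembly genes, against 39.5% and 39.8% of all protein-coding genes outside the 81. Both ubl-1 and ubq-2 had a summit in each replicate, and of the 4 RNA polymerase I genes 3 had one in replicate 1 and 1 in replicate 2. The pooled shares compare with 59.3% of the 81 ribosomal protein genes and 13.1% of the genes outside them, and the optimal shares with 8.64% and 0.945%. No test of these differences was made.

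Forkhead cores were not more frequent at ribosomal protein genes. At least 1 of the 4 cores marked above, searched on both strands, was found in the window of 61 of the 81 genes (75.3%), against 81.1% of the other genes. Within 100 bp of the pooled summit, 4 of 48 genes (rpl-9, rpl-26, rpl-30 and rpl-41.1) held a core, or 8.33%, against 19.5% of the other genes with a pooled summit. Of the 7 optimal summits 0 did, against 6.38%. In replicate 1 the share was 12.5% against 21.4%, and in replicate 2 10.3% against 17.7%. The cores are rich in A and T, and the 201 bases around the pooled summits had a median of 41.3% G and C at the ribosomal protein genes (27.9 to 55.2%), against 38.8% at the others. The part of base composition in the core counts was not tested. The 500 bp upstream had a median of 33.8% in both sets of genes.

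Other words were more frequent before ribosomal protein genes than before other genes. Words of 8 bases were counted on both strands in the 500 bp upstream of the 5′ end, and 205 words were found before at least 15 of the 81 genes. The 3 with the largest ratio to the other genes overlap one another: TAGGCCAA before 15 genes (18.5%, against 0.995%), GGCCTAAA before 22 (27.2%, against 1.55%) and TGGCCTAA before 18 (22.2%, against 1.27%). They were followed by AACGAGTG before 15 genes (18.5%, against 1.21%) and GCGAGACC before 23 (28.4%, against 2.26%). These words were picked by their ratio, so the ratios are a description. GGCCTAAA had 25 matches, 17 of them in the orientation of the gene, at a median of -223 bp from the 5′ end. It stands before rpl-3, rpl-15, rps-28, rpl-35, rpl-22, rpl-11.2 and rps-26 among the genes with the highest pooled peaks. Before the others named with these it was not found: rpl-20, rpl-12, rpl-42, rpl-14, rpl-43, rps-12, rpl-24.2, rpl-5, rps-11 and rps-1. Its share was alike in genes with and without a peak, since it was before 13 of the 48 genes with a pooled summit (27.1%) and 9 of the 33 without (27.3%). Of the 13 matches at genes with a pooled summit, 11 were downstream of the summit, and the median over all 13 was 60 bp downstream.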

How the data were processed

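ChIP-seq peaks of tagged FKH-10 in 2 biological replicates of 1 group were analysed. The deposited lists of files show that reads of both replicates and of a control were aligned to ce11 by the authors, who called peaks per replicate and on both together. The sources used here do not name the aligner or the caller. Each deposited peak carries a signal (its height), in units that are not stated. Signal and summit (peak start plus offset) were read from the ce11 optimal, pooled, replicate 1 and replicate 2 lists. Most peaks have 1 fixed width (336 bp in the pooled list), which puts most summits at an interval's middle. The ce10 lists were not used.

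ce11 has the chromosome lengths of WBcel235. Genes came from Ensembl release 115, products and sequence from RefSeq, with 1-based coordinates, and all 84 genes of the rule matched a RefSeq product. Genes were counted by a summit from 1000 bp upstream to 500 bp downstream of the 5′ end of the gene record, beside all other protein-coding genes. No test was run: shares carry 95% Wilson intervals, and differences of shares carry Newcombe intervals. The members and lists were chosen with earlier results of these data known. Genes are named where they have an optimal summit, are among the 10 highest others in the pooled list or the 5 highest of a replicate, or have no summit, with others named in classes, as exceptions or by role; of related groups, optimal hits and the 2 highest. Counting was tested on simulated data. Alternatives were other windows, transcripts, overlaps, stricter lists, 1 gene per summit, each replicate alone and other memberships, the last chosen after seeing the data. The software was Python 3.11.15 and its packages pandas 2.3.3, numpy 2.4.6, matplotlib 3.10.9 and scipy 1.17.1.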

Additional observations from a re-analysis of the deposited data

How the results depend on the processing

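The count of ribosomal protein genes ranged over the alternatives from 4 to 7 in the optimal list, 32 to 53 in the pooled list, 36 to 69 in replicate 1 and 40 to 75 in replicate 2. The ratio of their share to that of the other genes was above 1 in every alternative run, from 1.59 to 11.0. Counts moved by more than 1.5 times when the optimal list was reduced to its upper 50% by height, which left 4 genes, and when the replicate lists were reduced to the length of the pooled list, which left 36 genes in replicate 1 and 40 in replicate 2. These settings hold fewer peaks by construction. That reduction also moved the small- minus large-subunit difference of replicate 1 to -25.0 percentage points. In place of the pooled list, the strongest peaks of single replicates gave 36 to 40 genes and a subunit difference of -25.0 to 3.61 points. With the rpa genes included, or without rpl-24.2 and rpl-42, settings chosen after seeing the data, no count moved by more than 1.5 times. The sign of the subunit difference did turn. With the rpa genes it was 1.95 in replicate 1 and 2.74 in replicate 2. These genes are not ribosomal but were counted there with the large subunit. In replicate 1 this was the only 1 of 10 alternatives above 0. Without rpl-24.2 and rpl-42 the difference was 0.538 in replicate 2. In replicate 2 it was above 0 in 8 of the 10 alternatives, up to 7.42 with a window of 500 bp on either side.

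No paired analysis was possible because there is 1 group. With 2 replicates and no read counts, the error of a single height cannot be given. No untagged strain was analysed here, and the share of these peaks that such a strain would also give was not tested.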
